A study of Mus musculus with 10 samples.

Results

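Chemokines are small secreted proteins that draw leukocytes, microglia and neural precursor cells along a concentration gradient. The chemokine genes described here are Ccl2, Ccl7, Ccl12, Ccl3, Ccl4, Ccl5, Cxcl1, Cxcl10, Cxcl12 and Cx3cl1, and every transcript in the counts that is annotated to them was taken. Counts were analysed for 9 of the 10 genes, by 10 transcripts (2 of them of Cxcl12) of 22534 in all, and Cxcl10 was not analysed here. The cultures held neurons and glia from cortices of newborn FVB mice of both sexes and were 7 days old. Of the cultures used here, 3 were left untreated (numbered 1, 2 and 3) and 2 were depolarized with KCl, at a final 55 mM for 3 h (numbered 4 and 5). Cycloheximide was added to each culture before lysis to arrest its ribosomes, and each lysate was divided for RNA sequencing (RNAseq, transcript abundance) and for ribosome footprinting (RF, ribosomal occupancy), in which RNase leaves the stretch of mRNA that a ribosome covers. The genes were chosen by the KCl comparison itself, with its values known, so their differences between KCl and untreated cultures are given as a description and without p-values, and the calls of the fit across all transcripts are read as no evidence about them.

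Chemokines act on receptors of the cell membrane that couple to inhibitory G proteins, and their classes are named for the spacing of the first cysteines of the mature protein. In the brain, CCL2, CCL7 and CCL12 are ligands of CCR2, by which blood monocytes are recruited, and are made by activated glia. CCL3 and CCL4 are made above all by microglia among the resident brain cells, and CCL5 draws T cells. CXCL1 recruits neutrophils through CXCR2, CXCL12 guides migrating neurons and precursors through CXCR4, and CX3CL1, a membrane-bound chemokine of neurons, binds CX3CR1 on microglia. The stretch of 30 bases of coding sequence (CDS) around these cysteines, on GRCm38, shows the classes in the mRNA of 8 of the genes, with the codons of both cysteines in capitals. They are adjacent in the CC genes, 1 codon apart in the CXC genes and 3 codons apart in Cx3cl1.
Ccl2, chr11:82036494-82036523, plus strand: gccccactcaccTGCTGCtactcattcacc
Ccl7, chr11:82046526-82046555, plus strand: aatgcatccacaTGCTGCtatgtcaagaaa
Ccl12, chr11:82102622-82102651, plus strand: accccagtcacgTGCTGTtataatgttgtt
Ccl4, chr11:83663470-83663499, plus strand: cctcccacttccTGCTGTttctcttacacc
Ccl5, chr11:83529230-83529259, minus strand: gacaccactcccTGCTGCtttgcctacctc
Cxcl1, chr5:90891487-90891516, plus strand: gagctgcgcTGTcagTGCctgcagaccatg
Cxcl12, chr6:117171499-117171528, plus strand: agctaccgaTGCcccTGCcggttcttcgag
Cx3cl1, chr8:94778045-94778074, plus strand: acgaaaTGCgaaatcatgTGCgacaagatg
Each of these stretches lies in exon 2 of its gene. No run of 28 bases, about the length of a footprint, in the CDS of the chemokine genes occurs in an annotated transcript of another gene. Counted over all columns of an alignment, gaps included, the CDS of Ccl3 and Ccl4 were the most alike between genes, with 65.6% identical. Gaps lower this share where the lengths differ, as for Ccl2 and Ccl12 (444 and 312 bases), which share 17 bases in a row. The 2 transcripts of Cxcl12 are the exception, since all 240 runs of 28 bases in the CDS of the shorter transcript recur in the longer transcript. Their footprints cannot be told apart, and the authors kept reads that map to several transcripts.

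The CC genes lie on chromosome 11 in 2 groups. Ccl2 (ENSMUST00000000193, chr11:82035571-82037453), Ccl7 (ENSMUST00000021011, chr11:82045712-82047525) and Ccl12 (ENSMUST00000000194, chr11:82101845-82103400) are on the plus strand within 67830 bases. Ccl5 (ENSMUST00000035938, chr11:83525778-83530518, minus strand), Ccl3 (ENSMUST00000001008, chr11:83647844-83649355, minus strand) and Ccl4 (ENSMUST00000019074, chr11:83662584-83664683, plus strand) follow after a gap of 1422377 bases. Cxcl1 (ENSMUST00000031327, chr5:90891241-90893115), Cxcl12 (ENSMUST00000112866, chr6:117168535-117175069) and Cx3cl1 (ENSMUST00000034230, chr8:94772009-94782427) are on other chromosomes and on the plus strand. The longer transcript of Cxcl12 (ENSMUST00000073043, chr6:117168577-117181367) has a different end.

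The RNAseq libraries held 3056286 to 3629959 counted reads and the RF libraries 1463654 to 7719915, with untreated culture 3 and KCl culture 4 the shallowest in RF. A transcript was called measured where at least 2 cultures had an RPKM (reads per length of the transcript and size of the library) of 10 or more in both assays. This held for 7262 transcripts, among them 1 transcript each of Ccl2, Ccl7, Ccl3, Ccl4, Cxcl1, Cxcl12 and Cx3cl1. Ccl12, Ccl5 and the longer transcript of Cxcl12 stayed below this limit. Values per culture are normalized CPM, the reads on a transcript relative to the size of the library after TMM scaling, and levels of different genes are compared as normalized RPKM, that is per kilobase of transcript in RNAseq and of CDS in RF. The labels name the cells neurons. Markers of neurons were present (Snap25, Stmn2 and Tubb3 were measured), and the summed transcript abundance of 10 neuronal markers was between 495 and 713 normalized CPM in untreated cultures, beside 13786 to 14622 for 10 astrocyte markers and 526 to 538 for 13 microglial markers.

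In untreated cultures Ccl2 was the most abundant chemokine transcript per length, at 216 ± 63.0 normalized RPKM (SD, n = 3), which is above 96.1% of the measured transcripts. Ccl3 followed at 126 ± 8.50, Ccl7 at 80.3 ± 22.9 and Ccl4 at 49.4 ± 11.9. The ranges of Ccl2, Ccl3 and Ccl7 over the 3 cultures did not overlap, whereas Ccl7 overlapped Ccl4. Cxcl1 was at 34.9 ± 9.45, Cxcl12 at 27.3 ± 8.24 and Cx3cl1 at 14.8 ± 1.98 normalized RPKM. Ccl4 overlapped Cxcl1, and Cxcl1 overlapped Cxcl12. Only Cx3cl1, below all 3 values of Cxcl12, stood apart at the lower end. The median measured transcript was at 27.1.

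Ribosomal occupancy of the CDS gave another order in the same cultures. Ccl2 was again the highest, at 431 ± 153 normalized RPKM, above 96.7% of the measured transcripts. Cxcl12 was next at 220 ± 29.7, with a range below that of Ccl2 and above that of Ccl7. Ccl7 (137 ± 51.6), Ccl4 (126 ± 38.1), Ccl3 (110 ± 20.5) and Cx3cl1 (84.9 ± 10.1) each overlapped their neighbour. Cxcl1, at 40.1 ± 26.1, was lowest, and its 3 values stayed below the lowest of Cx3cl1.

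The transcripts of Ccl2 and Ccl7, neighbours on chromosome 11 and ligands of the same receptor, were about 8 times less abundant in the KCl cultures. Transcript abundance of Ccl2 was 121, 184 and 222 normalized CPM in untreated cultures 1, 2 and 3 and 20.5 in each KCl culture. The lowest untreated culture was thus far above both KCl cultures, and the log2 fold change was -3.09 ± 0.22 (SE), the second lowest of 7262 transcripts. Its ribosomal occupancy was 122, 257 and 195 normalized CPM in untreated cultures and 17.8 and 19.9 in KCl cultures, which gave a log2 fold change of -3.31 ± 0.58. Behind these values stand 702, 1266 and 208 footprints in untreated cultures, and 20 and 43 in KCl cultures. Reads on the CDS and on the 3′UTR moved alike, from 872 to 64 and from 353 to 33 RNAseq reads summed over the untreated and the KCl cultures. In these mixed cultures, fewer cells that hold a transcript and less of the transcript in each cell cannot be told apart.

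Ccl7, which like Ccl2 recruits monocytes, had 46.3, 63.6 and 83.0 normalized CPM of RNAseq in untreated cultures and 10.7 and 5.13 in KCl cultures. In RF it had 22.5, 48.3 and 48.7 in untreated and 5.33 and 4.18 in KCl cultures. The groups did not overlap in either assay, and the log2 fold changes were -3.04 ± 0.29 and -3.02 ± 0.54. The KCl values rest on 26 and 14 RNAseq reads and on 6 and 9 footprints, and without KCl culture 4 the log2 fold change in RNAseq was -3.64. In both genes untreated culture 1 was the lowest of its group in both assays.

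Ccl12, the third gene of this group, was sparse. It had 12, 11 and 21 RNAseq reads in untreated cultures and 9 and 2 in KCl cultures, and 33, 21 and 7 footprints in untreated against 0 and 1 in KCl cultures. Over the summed reads, occupancy was 17.01 times higher in untreated cultures, with an exact 95% interval from 2.94 to 683 that covers counting error only. The same ratio for transcript abundance was 2.72 (1.38 to 5.85). As with Ccl2 and Ccl7, both KCl cultures lay below the 3 untreated cultures in normalized CPM in both assays.

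The genes of the other group on chromosome 11 did not share this difference. Ccl3, a chemokine of activated microglia, was at 95.7, 90.5 and 103 normalized CPM of RNAseq in untreated cultures and at 133 and 142 in KCl cultures. Both KCl cultures were above every untreated culture, with a log2 fold change of 0.51 ± 0.15. Footprints gave 31.3, 35.6 and 24.3 normalized CPM in untreated and 53.3 and 45.9 in KCl cultures, with a log2 fold change of 0.62 ± 0.18 and again no overlap. Beside this stand the markers of microglia, 13 of 17 with counts. Their summed ribosomal occupancy was also higher in KCl cultures, 801 to 839 against 663 to 751 normalized CPM, while their summed transcript abundance was 472 to 527 against 526 to 538. The part of microglia in the values of Ccl3 was not tested.

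Ccl4, next to Ccl3 on the chromosome, had 24.9, 40.6 and 32.3 normalized CPM of RNAseq in untreated cultures and 21.8 and 31.1 in KCl cultures. Its occupancy was 28.05, 29.3 and 46.8 in untreated and 32.0 and 32.9 in KCl cultures. The groups overlapped in both assays, and the log2 fold changes were -0.29 ± 0.25 and 0.04 ± 0.22. Ccl5 had 8, 10 and 3 RNAseq reads in untreated and 3 and 13 in KCl cultures. It had 3, 9 and 1 footprints in untreated cultures and 0 in each KCl culture, where 3 footprints are the limit that a count of 0 allows per library, so a difference of occupancy was not detectable at this depth.

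**Figure D1:**
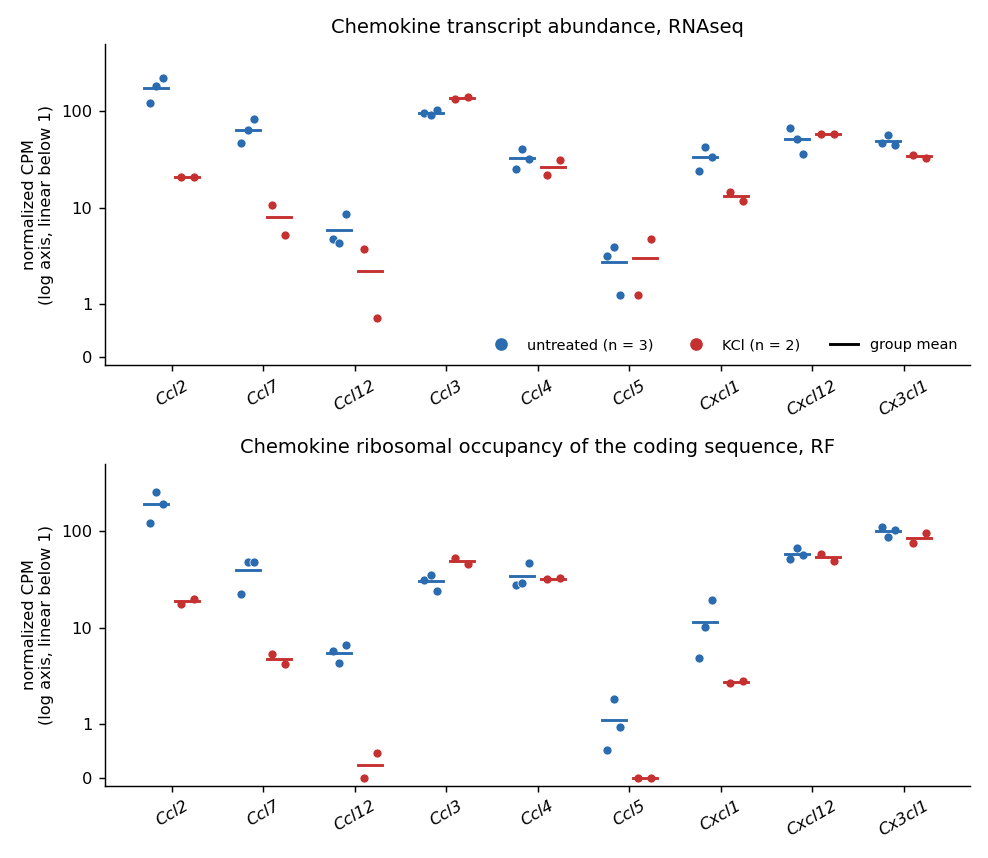
Normalized CPM (log axis, linear below 1) of 9 chemokine genes in each culture, for RNAseq reads on the whole transcript (top) and RF reads on the CDS (bottom), with untreated cultures in blue, KCl cultures in red and lines at the group means. Ccl2 and Ccl7 lie far lower in both KCl cultures in both assays (for Ccl2 20.5 against 121 to 222 in RNAseq), Ccl3 lies higher, and the groups of Ccl4 and Cxcl12 overlap.

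Cxcl1, which recruits neutrophils, was at 24.1, 42.1 and 33.5 normalized CPM of RNAseq in untreated cultures and at 14.4 and 11.7 in KCl cultures, which gave a log2 fold change of -1.35 ± 0.28. Its occupancy was 4.85, 10.2 and 19.7 in untreated and 2.67 and 2.78 in KCl cultures, which gave -1.71 ± 0.65. The groups did not overlap, but the untreated cultures differed about 4-fold among themselves in RF, and the KCl values rest on 3 and 6 footprints. Nearly all RNAseq reads of Cxcl1 lay on its 3′UTR. With the few RNAseq reads on the CDS alone, 9 over the untreated and 5 over the KCl cultures, the log2 fold change was -0.24.

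Cxcl12, the ligand of CXCR4, was at 66.9, 51.1 and 35.98 normalized CPM of RNAseq in untreated cultures and at 58.8 and 57.9 in KCl cultures by its shorter transcript. Its occupancy was 51.6, 67.2 and 57.1 in untreated and 58.7 and 49.6 in KCl cultures. Both groups overlapped, with log2 fold changes of 0.18 ± 0.20 and -0.14 ± 0.17. The longer transcript, whose 3′UTR has 5188 bases, had 42.4, 26.9 and 27.8 normalized CPM of RNAseq in untreated and 23.0 and 24.6 in KCl cultures. It was thus lower in both KCl cultures in RNAseq, where the shorter transcript was not. In the fit without the filter its RNAseq log2 fold change was -0.38 ± 0.25.

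Cx3cl1, made by neurons as a stalked membrane protein, was at 46.7, 56.6 and 44.2 normalized CPM of RNAseq in untreated cultures and at 34.9 and 33.0 in KCl cultures. Both KCl cultures were below the lowest untreated culture, with a log2 fold change of -0.53 ± 0.21. Its occupancy of 110, 87.4 and 104 in untreated and 75.6 and 96.5 in KCl cultures overlapped, with a log2 fold change of -0.19 ± 0.15. Its receptor gene Cx3cr1 is described with the receptors.

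Summed over the 9 genes, chemokine transcripts made up 433, 537 and 565 normalized CPM in untreated cultures and 299 and 307 in KCl cultures. Ccl2 alone gave 27.9%, 34.3% and 39.4% of this sum in untreated cultures and 6.88% and 6.69% in KCl cultures. In RF, the sums were 377, 541 and 503 in untreated and 245 and 252 in KCl cultures. Ccl2, Ccl7 and Ccl12 together were at 172 to 314 normalized CPM of RNAseq in untreated cultures and at 34.9 and 26.4 in KCl cultures, while Ccl3, Ccl4 and Ccl5 together were at 124 to 137 and at 156 and 178. In RNAseq Ccl2 thus had the highest normalized CPM of the 9 genes in each untreated culture, and Ccl3 in each KCl culture.

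**Figure D2:**
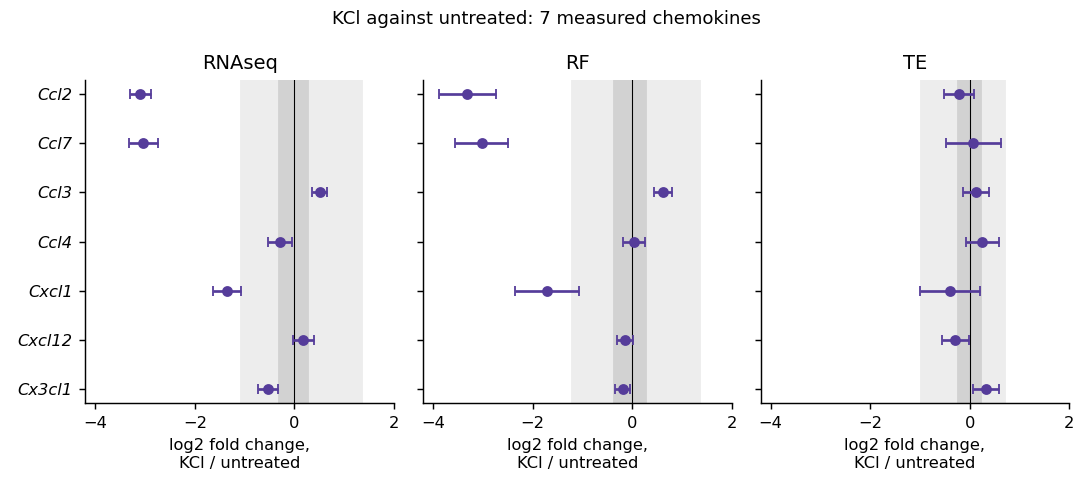
Log2 fold change of the 7 measured chemokines, KCl against untreated cultures, in RNAseq, RF and TE (points, with bars of 1 SE on each side), over the central 95% (light grey) and the interquartile range (dark grey) of all 7262 measured transcripts. Ccl2, Ccl7 and Cxcl1 lie below the light band in RNAseq and RF, and no chemokine lies outside it in TE.

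By the fit across all measured transcripts (edgeR's quasi-likelihood test, adjusted p under 0.05), 4 of the 7 measured chemokines were called lower and 1 higher in RNAseq, beside 15.1% and 17.9% of all 7262 transcripts. In RF, 3 were called lower and 1 higher, beside 20.1% and 20.8%. The median log2 fold change of the 7 was -0.53 in RNAseq and -0.19 in RF, beside 0.00 and -0.01 over all transcripts. The KCl groups lay apart from the untreated groups for 4 lower and 1 higher chemokine in RNAseq, beside 27.2% and 27.6% of all transcripts, and for 3 lower and 1 higher in RF, beside 31.0% and 30.2%. As the genes were selected on this contrast, nothing is read from these counts.

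TE, the ratio of RF to RNAseq normalized RPKM of a culture, showed how much of the difference in occupancy went beyond that in abundance. For Ccl2 it was 1.84, 2.56 and 1.603 in untreated and 1.58 and 1.78 in KCl cultures, and for Ccl7 1.34, 2.09 and 1.61 against 1.37 and 2.24. The groups overlapped, with log2 fold changes of TE of -0.22 ± 0.30 and 0.08 ± 0.55, while the RNAseq and RF differences of both genes were near or above 3 on the log2 scale. Ccl3 had a TE of 0.909, 1.09 and 0.653 in untreated and 1.12 and 0.899 in KCl cultures (log2 fold change 0.12 ± 0.26). The remaining log2 fold changes of TE were -0.40 ± 0.60 for Cxcl1, -0.29 ± 0.27 for Cxcl12, 0.25 ± 0.33 for Ccl4 and 0.33 ± 0.26 for Cx3cl1. None of the 7 was called in TE, where 1.53% of all transcripts were called higher and 4.27% lower. All 7 groups overlapped in TE, where the groups of 15.7% of all transcripts lay apart with KCl higher and of 18.3% with KCl lower. The paper presents Ccl2 as a gene whose transcript abundance and TE fell together with KCl. Its calls came from permutation at an unadjusted p under 0.05, with positions near start and stop codons left out of TE. Here the TE of Ccl2 was also lower in KCl cultures, in the main fit and in all 13 alternatives. The difference in the main fit (-0.22 ± 0.30) was smaller than its SE. The source of this disagreement was not tested.

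The level of TE differed far more between the chemokines than between the conditions. In untreated cultures Cxcl12 had a TE of 8.61 ± 2.92 (SD, n = 3), above 98.7% of the measured transcripts, and Cx3cl1 of 5.84 ± 1.32, above 96.1%. Their ranges overlapped each other and lay above the range of every other chemokine. Ccl4 (2.63 ± 0.87), Ccl2 (2.00 ± 0.50), Ccl7 (1.68 ± 0.38), Cxcl1 (1.13 ± 0.70) and Ccl3 (0.88 ± 0.22) followed, each overlapping the next, around the median transcript at 1.81. Ccl3 and Ccl4 differed about 3-fold in the mean, and their ranges of 0.653 to 1.09 and 1.72 to 3.47 did not overlap. The TE of Cxcl12 holds footprints that both of its transcripts share, set against RNAseq reads on the shorter transcript, and is for this reason an upper value. The TE of Cxcl1 is set against RNAseq reads of which only 3.57% lay on the CDS in untreated cultures, beside 65.7% in Ccl2. Its place in this order therefore depends on reads outside the CDS.

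**Figure D3:**
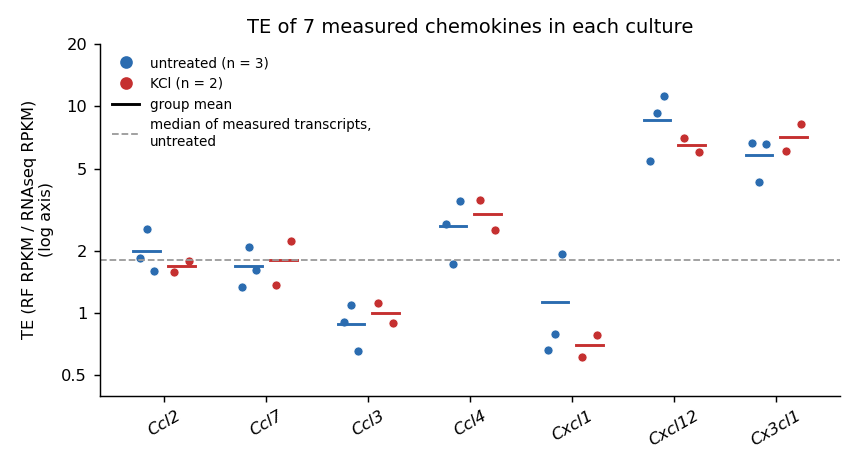
TE (RF normalized RPKM over RNAseq normalized RPKM, log axis) of the 7 measured chemokines in each culture, untreated in blue and KCl in red, with lines at the group means and a dashed line at 1.81, the median of all measured transcripts in untreated cultures. The groups overlap for every gene, and Cxcl12 and Cx3cl1 lie above the other 5 in all cultures.

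The place of the reads along the transcripts was taken from the counts per region. RF reads lay almost wholly on the CDS, from 90.5% in Ccl3 to 100% in Ccl7 over the untreated cultures. Ccl3 had the largest share of footprints on its 5′UTR among the measured chemokines, 39 of 422 reads (9.24%) in untreated and 9 of 168 (5.36%) in KCl cultures, followed in untreated cultures by Cxcl12 at 5.71% and Ccl4 at 3.78%. Ccl2 had 0.59% there and Ccl7 none of 420 reads. RNAseq reads, in contrast, were spread over the transcript, with 65.7% on the CDS in Ccl2, 36.3% in Ccl7 and only 3.57% in Cxcl1, where 93.7% lay on the 3′UTR. These shares were close in untreated and KCl cultures for Ccl3 (38.9% and 34.9% on the CDS) and further apart for Ccl7 (36.3% and 47.5%, of 485 and 40 reads).

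**Figure D4:**
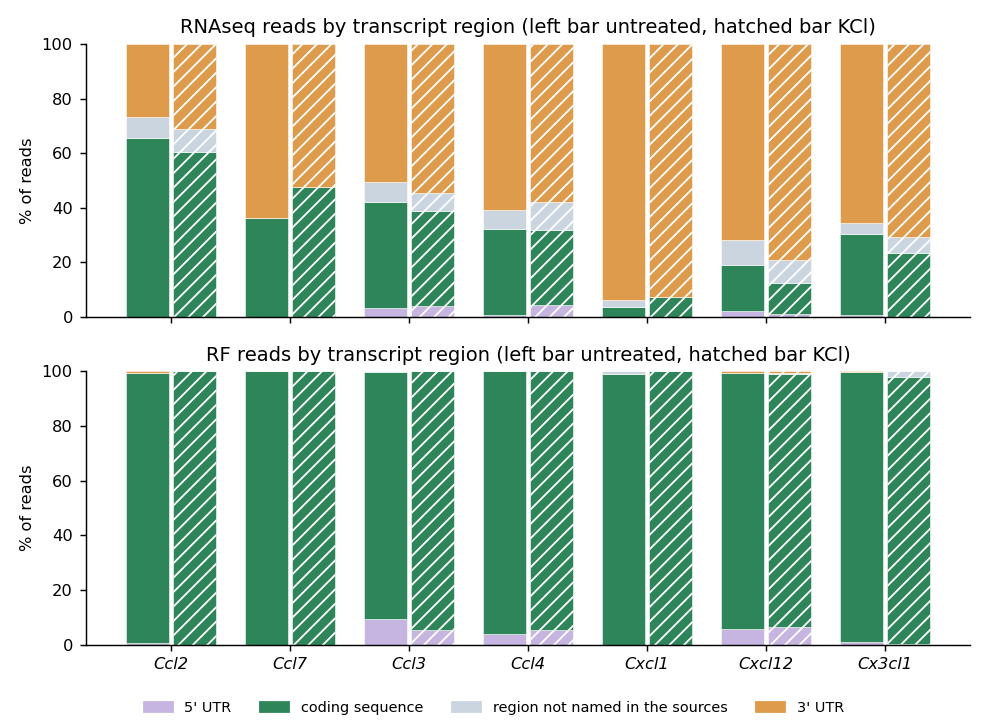
Share of reads by transcript region (5′UTR, CDS, 3′UTR and a further region that the sources do not name) of the 7 measured chemokines, in RNAseq (top) and RF (bottom), summed over the 3 untreated cultures (left bars) and the 2 KCl cultures (hatched bars). Footprints lie on the CDS, with 9.24% on the 5′UTR of Ccl3 in untreated cultures, and RNAseq reads of Cxcl1 lie almost all on the 3′UTR.

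The genes whose values over the 10 libraries were most like those of Ccl2 were sought among 4368 other genes, by the root mean square difference of log2 normalized CPM after taking off the untreated mean of each assay. Ccl7 was closest, at 0.33. This measure follows the size of the KCl difference, with which both genes were chosen, so nothing is read from their closeness. The closest genes other than the chemokines were Ppp1r3c, a subunit that targets a phosphatase to glycogen (0.45), and Tgm1, a transglutaminase (0.53). Ifitm10 (0.68), Hes5, a transcription factor downstream of Notch (0.70), and Lcn2, a siderophore-binding protein released by reactive astrocytes (0.76), came next. Ppp1r3c had 641 to 770 RNAseq reads in untreated and 65 to 130 in KCl cultures, with log2 fold changes of -2.88 ± 0.19 in RNAseq and -2.94 ± 0.16 in RF. Lcn2 had 294 to 395 and 79 to 112, with -1.89 ± 0.19 and -2.26 ± 0.16. Among the chemokines, Cxcl1 was number 36 in this order and Ccl3 number 3920.

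The other chemokine ligands were mostly too low to measure. Of 28 listed genes 15 had counts, and 1 was measured, Cxcl14, whose transcript abundance fell from 35.4 to 20.6 normalized CPM (log2 fold change -0.78 ± 0.24, adjusted p = 0.011) and whose occupancy did not pass the test (-0.56 ± 0.24, adjusted p = 0.066). Without KCl culture 4 the value of Cxcl14 in RNAseq was -0.67 and no longer passed. With RNAseq reads on the CDS alone it was -0.57 and did not pass either. In the fit of all transcripts with at least 1 read, Cxcl16, a membrane-bound ligand of CXCR6, was also lower in RNAseq (-1.03 ± 0.30, adjusted p = 0.0052). Cxcl2, a close relative of Cxcl1, had 20, 23 and 33 RNAseq reads in untreated and 30 and 43 in KCl cultures, with a log2 fold change of 0.54 ± 0.35 (adjusted p = 0.31). The genes of this fit were named after their values were seen.

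Of 23 receptor genes, 13 had counts and 2 were measured. Cxcr4, the receptor of CXCL12, rose from 19.2 to 40.8 normalized CPM in RNAseq (log2 fold change 1.08 ± 0.24, adjusted p = 0.00060) and by 1.55 ± 0.11 in RF (adjusted p = 7.7e-12), while the atypical CXCL12 receptor Ackr3 had log2 fold changes of -0.17 ± 0.21 and -0.12 ± 0.17 (adjusted p = 0.57 and 0.60). The ligand and its receptor thus differed, since neither transcript of Cxcl12 was higher in KCl cultures beyond the spread of untreated cultures. Cx3cr1, the receptor of CX3CL1 and a defining marker of microglia, was below the filter. It had 63, 70 and 51 RNAseq reads in untreated and 21 and 41 in KCl cultures, and 364, 327 and 81 footprints against 42 and 78. In the fit of all transcripts with at least 1 read it was lower in both assays (-0.96 ± 0.30, adjusted p = 0.011, and -0.80 ± 0.18, adjusted p = 0.00012). In the same fit the receptor gene Ackr1 was higher in RNAseq (1.29 ± 0.43, adjusted p = 0.017), and it had no footprints in any library. No counts of Ccr2 or Cxcr2, the receptors of CCL2 and CXCL1, were analysed here.

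Of 15 genes of receptor signalling and ligand processing, 7 were measured, among them the 3 inhibitory G protein genes Gnai1, Gnai2 and Gnai3. In RNAseq 1 fell, Arrb1, an arrestin that uncouples receptors (-0.49 ± 0.16, adjusted p = 0.014), and 6 did not pass the test. In RF Gnai3 rose (0.35 ± 0.10, adjusted p = 0.0048), Adrbk1, a receptor kinase, fell (-0.92 ± 0.23, adjusted p = 0.0018), and 5 did not pass. Arrb1 no longer passed without untreated culture 3 (-0.46) or KCl culture 5 (-0.40), nor did Gnai3 (0.36) and Adrbk1 (-0.80) in RF without KCl culture 5, or Gnai3 with library totals in place of TMM (0.22). The RNAseq call of Arrb1 was also lost with RNAseq reads on the CDS alone (-0.87). Adam10, a protease that sheds CX3CL1 from the membrane, had log2 fold changes of 0.16 ± 0.18 and -0.09 ± 0.11.

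Both measured cytokines of 12 listed fell in both assays. Tnf, an inducer of chemokine genes, fell from 26.9 to 8.46 normalized CPM in RNAseq (-1.65 ± 0.32, adjusted p = 9.0e-05) and in RF (-1.33 ± 0.40, adjusted p = 0.0085, with -0.90 and no call without KCl culture 5). Csf1, a growth factor of microglia, fell from 312 to 124 normalized CPM (-1.33 ± 0.14, adjusted p = 9.8e-10) and in RF (-0.98 ± 0.12, adjusted p = 1.6e-07). Il1b, a further inducer, was sparse, with 12, 27 and 18 RNAseq reads in untreated and 1 and 5 in KCl cultures, and 38, 77 and 15 against 3 and 1 footprints. In the fit of all transcripts with at least 1 read, Il1b (-2.60 ± 0.65, adjusted p = 0.00093) and Lif (-2.01 ± 0.39, adjusted p = 6.0e-06) were lower in RNAseq.

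Of 14 transcription factors and inhibitors known to act on chemokine genes, 7 were measured. In RNAseq 5 rose, 1 fell and 1 did not pass the test, and in RF 4 rose, 2 fell and 1 did not pass. Those that rose in both assays were Fos (1.59 ± 0.18 and 2.33 ± 0.12), Cebpb (1.88 ± 0.26 and 1.98 ± 0.14), Jun (0.61 ± 0.14 and 1.36 ± 0.10) and Stat3 (0.36 ± 0.13 and 0.57 ± 0.08), and Rela, a subunit of NF-kB, rose in RNAseq (0.67 ± 0.17, adjusted p = 0.0024). Irf1, a factor of interferon responses, fell in both assays (-1.72 ± 0.26 and -1.90 ± 0.27), as did the inhibitor of NF-kB Nfkbia in RF (-0.60 ± 0.10, adjusted p = 3.5e-05). Stat3 no longer passed in RNAseq without untreated culture 3 (0.34) or KCl culture 5 (0.18), or with library totals in place of TMM (0.26). With RNAseq reads on the CDS alone, neither Jun (0.32) nor Stat3 (0.15) passed in RNAseq.

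The mRNAs of several chemokines hold AU-rich elements, at which proteins such as TTP (Zfp36) bind and shorten the life of an mRNA. The pentamer ATTTA occurred in the 3′UTR of 9 of the 10 chemokine transcripts, the exception being Ccl5, beside 62.6% of the measured transcripts, and the heptamer TATTTAT, which contains the pentamer, in 6 of 10, beside 23.7%. Cxcl1 had 7 pentamers in 592 bases (11.8 per kilobase) and 6 heptamers, and Ccl3 had 5 pentamers in 409 bases (12.2 per kilobase). Ccl12 had 5 in 167 bases (29.9 per kilobase). Ccl2 had 1 in 275 bases and Ccl7 2 in 435. The stretches of 30 bases with the most pentamers are shown with ATTTA in capitals. They are given for the measured chemokines whose KCl and untreated groups lay apart in both RNAseq and RF, which leaves out Ccl12 as below the filter.
Cxcl1, chr5:90892606-90892635, plus strand: gtcctATTTATTTAtgtATTTATTTAttcc
Ccl3, chr11:83648075-83648104, minus strand: ttgaaattttATTTAATTTAatcctattgg
Ccl2, chr11:82037205-82037234, plus strand: taatattaaacttATTTAacttattgatgt
Ccl7, chr11:82047254-82047283, plus strand: tattaatatttttATTTAattagccatgta
Such a match describes the sequence and is not a measured binding site.

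Of 10 genes for factors that act on AU-rich mRNAs 9 were measured, of which 4 rose and 2 fell in RNAseq and 4 rose in RF. Zfp36 rose from 115 to 273 normalized CPM in RNAseq (1.25 ± 0.15, adjusted p = 7.1e-09) and by 1.73 ± 0.17 in RF (adjusted p = 2.1e-09). Rc3h1, which encodes Roquin (1.30 ± 0.14 and 0.69 ± 0.17), and Elavl1, which encodes the stabilizing protein HuR (0.75 ± 0.14 and 0.92 ± 0.09), rose in both assays. Tial1 rose in RF (1.04 ± 0.16). The genes that fell in RNAseq were Tia1 (-0.80 ± 0.24, adjusted p = 0.0075) and Zfp36l1 (-0.38 ± 0.14, adjusted p = 0.032), the latter no longer past the test without untreated culture 3 (-0.34), KCl culture 4 (-0.42) or KCl culture 5 (-0.35). With RNAseq reads on the CDS alone, Elavl1 (0.38), Tia1 (-0.50) and Zfp36l1 (-0.39) no longer passed in RNAseq.

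**Figure D5:**
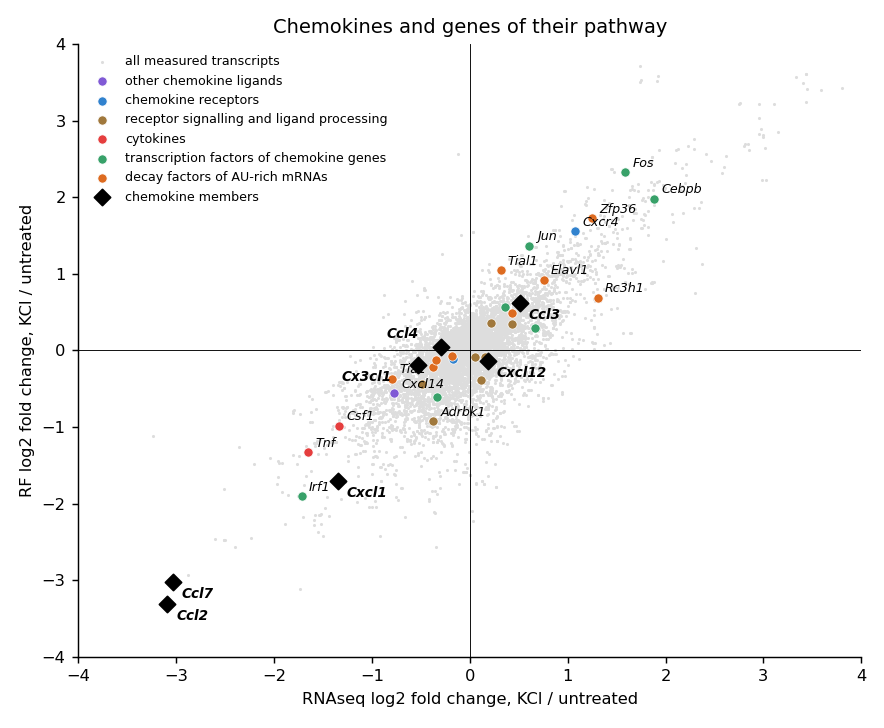
Log2 fold change in RNAseq against that in RF, KCl over untreated cultures, for the measured chemokines (black diamonds), measured genes of the 6 pathway lists (coloured points) and all measured transcripts (grey, of which 4 lie beyond the axes). Ccl2 and Ccl7 lie at the lower left end of all transcripts, Tnf, Csf1 and Irf1 lie lower in both assays, and Cxcr4, Fos, Cebpb and Zfp36 lie higher in both.

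The promoter sequences of RefSeq (GRCm38.p6, 250 bases before to 50 after the start of a gene) matched 6 of the 10 chemokine genes, Ccl12, Ccl3, Cxcl1, Cxcl10, Cxcl12 and Cx3cl1. TGANTCA, a form of the AP-1 motif, and GGGANTTCC, a form of the NF-kB motif, were sought on both strands. They occurred in 7.81% and 1.68% of all 32851 promoters, and among the 6 each occurred in Cxcl10.

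Markers of cell types are given as measured facts beside these values. No defining marker of a cell type was at 0 summed over the untreated RNAseq libraries. None of the 6 measured microglial markers changed in RNAseq, and C1qa (0.35 ± 0.11, adjusted p = 0.011), C1qc (0.48 ± 0.14, adjusted p = 0.0078) and Ctss (0.44 ± 0.14, adjusted p = 0.011) rose in RF. Without KCl culture 5 none of the 3 passed (0.32, 0.17 and 0.42), nor did Ctss without KCl culture 4 (0.46). Of the defining microglial markers, all below the filter, Tmem119 was lower in the fit of all transcripts with at least 1 read (-1.86 ± 0.37 in RNAseq, adjusted p = 1.2e-05, and -1.98 ± 0.47 in RF, adjusted p = 0.00027), as was Cx3cr1, Csf1r was higher in RF (0.48 ± 0.15, adjusted p = 0.010), and P2ry12 passed in neither assay. The markers of microglia therefore did not move in 1 direction. Of 10 astrocyte markers 4 fell in RNAseq (Aqp4, Slc1a3, Slc1a2 and Sox9), and in RF 4 rose and 1, Sox9, fell. Without KCl culture 5 Slc1a3 (-0.38) and Slc1a2 (-0.28) no longer passed in RNAseq, nor Slc1a3 (0.24), Gja1 (0.15) and Aldoc (0.31) in RF. The RF calls of markers also moved with the scaling. Over the 30 measured markers of all cell types 10 were higher and 4 lower in RF with TMM, against 3 higher and 5 lower with library totals, where C1qa (0.22), Ctss (0.31), Slc1a3 (0.11) and Gja1 (0.08) no longer passed. The defining astrocyte markers Gfap (-0.28 ± 0.13 in RNAseq and 0.01 ± 0.07 in RF) and Aldh1l1 (-0.19 ± 0.14 and 0.15 ± 0.08) passed in neither assay. The summed astrocyte markers were at 11499 to 11797 normalized CPM of RNAseq in KCl cultures, below the untreated range, and at 20739 to 21159 against 19374 to 19993 in RF.

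Of 4 measured markers of pericytes and fibroblasts, cells that also make CCL2, Col1a1 fell in RNAseq (-0.35 ± 0.13, adjusted p = 0.033), and Col1a1 (-1.40 ± 0.30, adjusted p = 0.028) and Col3a1 (-0.81 ± 0.18, adjusted p = 0.0061) fell in RF, where Dcn rose (0.24 ± 0.10, adjusted p = 0.041). The TE of Col1a1 (-1.06 ± 0.17, adjusted p = 1.7e-07) and Col3a1 (-1.11 ± 0.18, adjusted p = 1.2e-07) fell as well. For Col1a1 the RF call was lost with filterByExpr (-1.33). Its TE call was lost with DESeq2 (-1.07) and without untreated culture 1 (-0.93), and its TE value was -0.72 without KCl culture 4. The RNAseq call of Col1a1 was lost without untreated culture 2 (-0.29), KCl culture 4 (-0.44) or KCl culture 5 (-0.27), and the RF call of Dcn without untreated culture 1 (0.21) or 3 (0.20) or KCl culture 4 (0.26) or 5 (0.23), or with library totals in place of TMM (0.11). Pdgfrb, the defining marker of pericytes, was below the filter, with 63, 63 and 62 RNAseq reads in untreated and 27 and 32 in KCl cultures. In the fit of all transcripts with at least 1 read it was lower in both assays (-1.06 ± 0.30, adjusted p = 0.0044, and -0.82 ± 0.21, adjusted p = 0.0012). In the same fit Lum, a further marker of fibroblasts, was lower in RNAseq (-1.14 ± 0.38, adjusted p = 0.017) and did not pass in RF (-0.02 ± 0.23). The other markers of this list with counts did not pass the test in RNAseq, and their directions differed. Dcn (-0.15 ± 0.15) and Acta2 (-0.45 ± 0.19) were lower, as was Rgs5 in the fit of all transcripts with at least 1 read (-1.24 ± 0.66). Col3a1 (0.31 ± 0.14) was higher. Both KCl cultures lay below the untreated cultures for Acta2 and above them for Col3a1. Over 7 markers with counts the sum was 701 to 798 normalized CPM of RNAseq in KCl cultures against 766 to 912 in untreated cultures, and 1033 to 1203 against 1622 to 2207 in RF. The 7 endothelial markers, with the defining Cldn5, Pecam1, Flt1 and Cdh5 between 0.40 and 18.3 normalized CPM of RNAseq in untreated cultures, were all below the filter, with a sum of 46.5 to 47.7 against 46.4 to 48.2 in RNAseq and of 64.0 to 73.8 against 82.4 to 97.3 in RF. One of them, Esam, was higher in RNAseq in the fit of all transcripts with at least 1 read (3.05 ± 0.73, adjusted p = 0.00044). It had 3, 1 and 2 RNAseq reads in untreated and 19 and 15 in KCl cultures. The defining neuronal markers Stmn2 (0.19 ± 0.15 in RNAseq and 0.38 ± 0.17 in RF) and Tubb3 (-0.35 ± 0.15 and 0.05 ± 0.20) passed in neither assay, and Syt1 was below the filter. Among the neuronal markers below the filter, Gad1 was higher in RNAseq (1.38 ± 0.34, adjusted p = 0.00084) in the fit of all transcripts with at least 1 read. Slc32a1 was higher in RF in the same fit (0.51 ± 0.17, adjusted p = 0.012). Summed neuronal markers were at 644 to 650 against 495 to 713 in RNAseq and at 654 to 744 against 446 to 661 in RF, and of the 3 measured Snap25 rose in RF (0.87 ± 0.28, adjusted p = 0.032), but not without untreated culture 3 (0.88), KCl culture 4 (0.92) or KCl culture 5 (0.81), nor with library totals (0.74). Of the oligodendrocyte lineage Mbp (-0.12 ± 0.12 and 0.07 ± 0.10) passed in neither assay, and Pdgfra fell in RNAseq (-0.73 ± 0.18, adjusted p = 0.0013). Summed markers of this lineage were at 1799 to 1813 against 1874 to 2019 in RNAseq and at 1829 to 1982 against 1624 to 1843 in RF. The part of these cell types in the values of the chemokines was not tested.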

How the data were processed

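RNAseq and RF libraries of 3 untreated and 2 KCl cultures were used. According to the submitters' processing notes, Trimmomatic 0.32, STAR 2.3.1z8, Bowtie2 2.2.2 and bedtools 2.20.1 were used. After removal of rRNA reads the authors aligned to an mm10 transcriptome and deposited raw read counts per transcript region. The regions carry letters that the labels do not explain. The letter with 90.5% to 93.3% of RF reads was taken as the CDS, the first and last as 5′UTR and 3′UTR by order, and 1 region stays unnamed. Isoforms can share reads, and no source states that the RNAseq reads keep strand. The authors removed KCl replicate 3 for its small library.

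RNAseq counts over all regions and RF counts on the CDS of the 7262 measured transcripts were scaled by TMM within each assay and compared by edgeR 4.0.16 (quasi-likelihood test, R 4.3.3) with Benjamini-Hochberg adjustment over all of them. TE was the assay-by-treatment interaction with the culture as a replicate block, because both libraries of a culture come from 1 lysate (deviations of same-numbered libraries correlated between -0.07 and 0.07). The SE of a fold change is its log2 value over the square root of F, an approximation. The labels do not say whether cultures came from different litters, so p-values measure the spread between these cultures. The fits were tested on simulated counts. GENCODE vM21 annotation of GRCm38 gave names, coordinates and sequences for 98.4% of transcripts. The authors left positions near start and stop codons out of TE, which region counts do not allow.

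The members and lists were chosen with earlier results of these data known. Each gene is represented by the transcript that had most RNAseq reads on average. Of each list, the text may name the defining markers and up to 4 genes past an adjusted p of 0.05 with the largest change, and the 5 genes most like Ccl2. Other list genes, among them some that did not pass, were named after their values were seen. Alternatives were DESeq2 1.42.0, library totals, TMM over all 10 libraries, filterByExpr, no filter beyond 1 read, 1 transcript per gene, RNAseq reads on the CDS, all 10 libraries in 1 fit, no replicate block, and leaving out each culture.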

Additional observations from a re-analysis of the deposited data

How the results depend on the processing

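The log2 fold changes of the 7 measured chemokines that were called kept their direction under every alternative run, and Ccl2 ranged from -3.31 to -2.89 in RNAseq and from -3.59 to -2.92 in RF when each culture was left out. Calls were lost for Ccl2 in RF without KCl culture 4 or 5, for Ccl3 in RNAseq without KCl culture 5 and with RNAseq reads on the CDS and in RF without KCl culture 4, for Cxcl1 in RF without untreated culture 3 or either KCl culture, and for Cx3cl1 in RNAseq in 7 of 13 alternatives. RNAseq reads on the CDS in place of all reads moved Cxcl1 to -0.24 in RNAseq, where it was no longer called, and -1.70 in TE. The sign of the uncalled values of Ccl4 in RF, Cxcl12 in RNAseq, RF and TE, and of Ccl7, Ccl3 and Ccl4 in TE changed in at least 1 alternative.

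Over all transcripts, 2395 were called in RNAseq, 2971 in RF and 421 in TE. With filterByExpr 4232 were called in RNAseq and 5330 in RF, and with no filter beyond 1 read 4141 and 5311. With 1 transcript per gene the counts were 1441, 1744 and 262 (TE), and with RNAseq reads on the CDS 1532 in RNAseq and 266 in TE. DESeq2 called 182 in TE. Leaving out each culture gave 1638 to 2637 in RNAseq, 1698 to 3233 in RF and 70 to 547 in TE, with the lowest count of RF and of TE without KCl culture 5. Without the replicate block 420 were called in TE, and no call of a chemokine changed. Library totals in place of TMM moved the median of all transcripts to -0.10 in RNAseq and -0.14 in RF, and the share of calls that were higher from 54.3% to 40.7% and from 50.9% to 33.7%. With the same change the pathway lists went in RF from 10 higher and 5 lower to 9 and 9, and the marker lists from 10 and 4 to 3 and 5. With RNAseq reads on the CDS, the calls in RNAseq went from 17 to 11 over the pathway lists and from 6 to 3 over the marker lists. In the 2 KCl cultures Ccl5 had no footprints, Ccl12 had 0 and 1 and Cxcl1 had 3 and 6, so small differences of their occupancy were not detectable.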
